A study of Homo sapiens with 24 samples.

Results

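The cytosolic heat shock genes described here are 10 named genes: the small heat shock proteins HSPB1 and HSPB8, the HSP70 chaperones HSPA1A, HSPA1B and HSPA8, the HSP90 chaperones HSP90AA1 and HSP90AB1, the HSP110 chaperone HSPH1 and the co-chaperones DNAJB1 and BAG3. Every probe listed with one of these symbols was taken, which gave 13 of the 47323 probes on the array. A probe counted as detected where the deposited detection p-value was under 0.01, and it was tested where it was detected on at least 2 arrays. By that filter 12 of the 13 probes, for 9 of the 10 genes, were tested among 21608 probes and 12141 genes. The probe of HSPA1A was detected on 0 of the 24 arrays.

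Small heat shock proteins hold unfolding proteins in a form that can still be refolded, and HSP70 and HSP90 refold or activate them in cycles driven by ATP. DNAJB1 is a J-domain protein that delivers clients to HSP70 and starts ATP hydrolysis, while HSPH1 and BAG3 release the nucleotide again, BAG3 also joining HSP70 to HSPB8 in the disposal of aggregated proteins. The transcription factor HSF1 switches most of these genes on when unfolded proteins accumulate, and cancer cells often carry high levels of them without heat.

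SW480 cells, an established line from a human colon cancer, were profiled for RNA with HumanHT-12 v4 bead arrays of Illumina. They were infected with a pBABE-puro retrovirus, either the control virus or one labelled BOP1 (a ribosome biogenesis factor), CKS2 (a binding partner of cyclin-dependent kinases) or NFIL3 (a bZIP transcription factor), and all 4 resulting lines carried the vector. Cells were kept for 24 h with an inhibitor or with its solvent DMSO, and each of the 12 groups had 2 arrays. The BOP1 line was given LY294002 (a PI3 kinase inhibitor, 3.3 µM), SP600125 (a JNK inhibitor, 33.3 nM), DAPT (a gamma-secretase inhibitor, 667 nM) or DMSO. The CKS2 line was given LY294002 (3.3 µM), SB203580 (a p38 inhibitor, 3.3 µM) or DMSO. The NFIL3 line was given LY294002 (3.3 µM), SB203580 (3.3 µM), Rapamycin (an mTOR inhibitor, 33.3 nM) or DMSO. Cells with the control virus were given DMSO alone, so an inhibitor can be compared with DMSO in the BOP1, CKS2 and NFIL3 lines but not in the control line. Arrays of 1 group are labelled as biological replicates without saying which cultures they came from, and each p-value therefore measures no more than the spread between arrays, part of which may be technical.

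Mean raw signal lay between 970.8 and 1365.9 per array, 17984 to 19958 probes were detected, and the 2 arrays of a group correlated across probes at r = 0.99 to 0.996. The labels of the BOP1, CKS2 and NFIL3 lines could not be checked from the introduced gene. The BOP1 probe stood at 12.89 and 12.89 in the BOP1 line, against 13.53 and 13.38 in the control line (log2 levels; difference -0.56, adjusted p = 0.00187), the CKS2 probes at -0.43 and -0.13 and the NFIL3 probe at 0.00 relative to control, and the sources used here do not place these probes within or outside the inserts. Of 8 epithelial markers of colon cancer, 6 (KRT8, KRT18, KRT19, EPCAM, CDH1 and CDX2) were detected on all 24 arrays, and VIL1 and LGR5 on none. Of 8 leukocyte markers 1 (CD68) was detected on all arrays and PTPRC, CD3E and HBB on none, and of 10 fibroblast and endothelial markers 1 (COL1A1) was detected on all and 7 on none. In these bulk samples fewer cells with a transcript and less of it per cell cannot be told apart.

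HSF1 binds DNA at repeats of GAA and TTC in alternating orientation, and such repeats are what this gene family is known by, so the promoter matches are shown before the levels. RefSeq (GRCh38.p14) lists 15 promoter windows for the 10 genes, matched by symbol: 3 each for HSP90AB1 and DNAJB1, 2 for HSP90AA1 and 1 for each other gene. The 250 bases before each listed start were searched on both strands for 3 adjoining units (GAANNTTCNNGAA or TTCNNGAANNTTC) and for 2 units (GAANNTTC or TTCNNGAA), and each match of 3 units also contains 2 overlapping matches of 2 units. The capitals mark the match and each sequence reads 5′ to 3′ on the gene's own strand.
HSPA8, chr11:123062346-123062374, minus strand: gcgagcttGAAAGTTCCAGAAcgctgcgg
HSPA8, chr11:123062171-123062199, minus strand: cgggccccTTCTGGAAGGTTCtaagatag
HSP90AA1, chr14:102087112-102087140, minus strand: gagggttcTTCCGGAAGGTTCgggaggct
HSP90AB1, chr6:44247770-44247798, plus strand: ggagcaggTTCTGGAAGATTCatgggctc
HSP90AB1, chr6:44247823-44247851, plus strand: tgagattgTTCTGGAAGCTTCtggattct
DNAJB1, chr19:14518459-14518482, minus strand: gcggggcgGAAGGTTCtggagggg
DNAJB1, chr19:14518429-14518452, minus strand: gggctctgGAAGCTTCcgccggac
HSPA1A, chr6:31815429-31815452, plus strand: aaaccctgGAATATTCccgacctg
HSPA1B, chr6:31827625-31827648, plus strand: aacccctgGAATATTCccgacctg
HSPB8, chr12:119178835-119178858, plus strand: tcacctccGAATATTCctgtgaca
HSPB1, chr7:76302483-76302506, plus strand: taacgagaGAAGGTTCcagatgag

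The 3-unit repeat was found in 155 of all 35116 windows (0.441%), among them windows of HSPA8, HSP90AB1 and HSP90AA1. HSPA8 held it at 2 places, which begin 230 and 55 bases before the listed start at 123062136, a start that lies 326 bases inside the annotated gene span. HSP90AB1 held it 165 and 112 bases before its listed start at 44247943, which lies 1749 bases inside the span. HSP90AA1 held it 88 bases before the start at 102087044, which lies 52705 bases inside the span, with 1 further 2-unit match in that window. The 2-unit repeat was found in 4067 of all windows (11.6%) and in 8 of the 15 windows of these genes. The windows of HSPA1A, HSPA1B, HSPB8 and HSPB1 held it at 1 place each, and the DNAJB1 window before the start at 14518397, 41994 bases inside the span, held it at 2. These letters were not in the windows of HSPH1 and BAG3, nor in the other windows of HSP90AA1, HSP90AB1 and DNAJB1. The windows of HSPA1A and HSPA1B, neighbours on chromosome 6, had the same base at 235 of 249 positions (94.4%) when set against each other at an offset of 1 base. Because the transcripts of HSPA1A and HSPA1B are also near copies of each other, and the probe sequences are not among the files used here, which of them the HSPA1B probe reads cannot be told.

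By the RefSeq annotation of GRCh38.p14, HSPB1 lies at chr7:76302673-76304292, HSPB8 at chr12:119178931-119194746, HSPA1A at chr6:31815543-31817942 and HSPA1B at chr6:31827738-31830254. HSPA8 lies at chr11:123057489-123062462, HSP90AA1 at chr14:102080742-102139749, HSP90AB1 at chr6:44246194-44253883 and HSPH1 at chr13:31134973-31162388. DNAJB1 lies at chr19:14514769-14560391 and BAG3 at chr10:119651380-119677819.

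Across the 12 groups the heat shock genes were lowest with LY294002 and, for most, highest in the control line. The lowest of the 12 group means belonged to an LY294002 group for 7 of the 8 genes detected on all arrays, and the highest to the control line in DMSO for 5 of 9 (HSPB1, HSP90AB1, HSPH1, DNAJB1 and BAG3). HSPB8 ran from 6.10 to 7.32 on the 16 arrays that detected it and was undetected on 8. Of the probes that stood for the other 8 genes, that of BAG3 had the widest range over the 24 arrays (1.15 on the log2 scale) and the HSP90AA1 probe ILMN_2373515 the narrowest (0.51). ILMN_2373515 ranked between the 99.6 and 99.9 percentile of probes and reached 15.72, where the highest level of any probe was 16. Whether this narrowed its range was not tested. All log2 levels are of background-corrected, quantile-normalized signal with an offset of 16, which understates the change of a dim probe such as that of HSPB8.

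**Figure D1:**
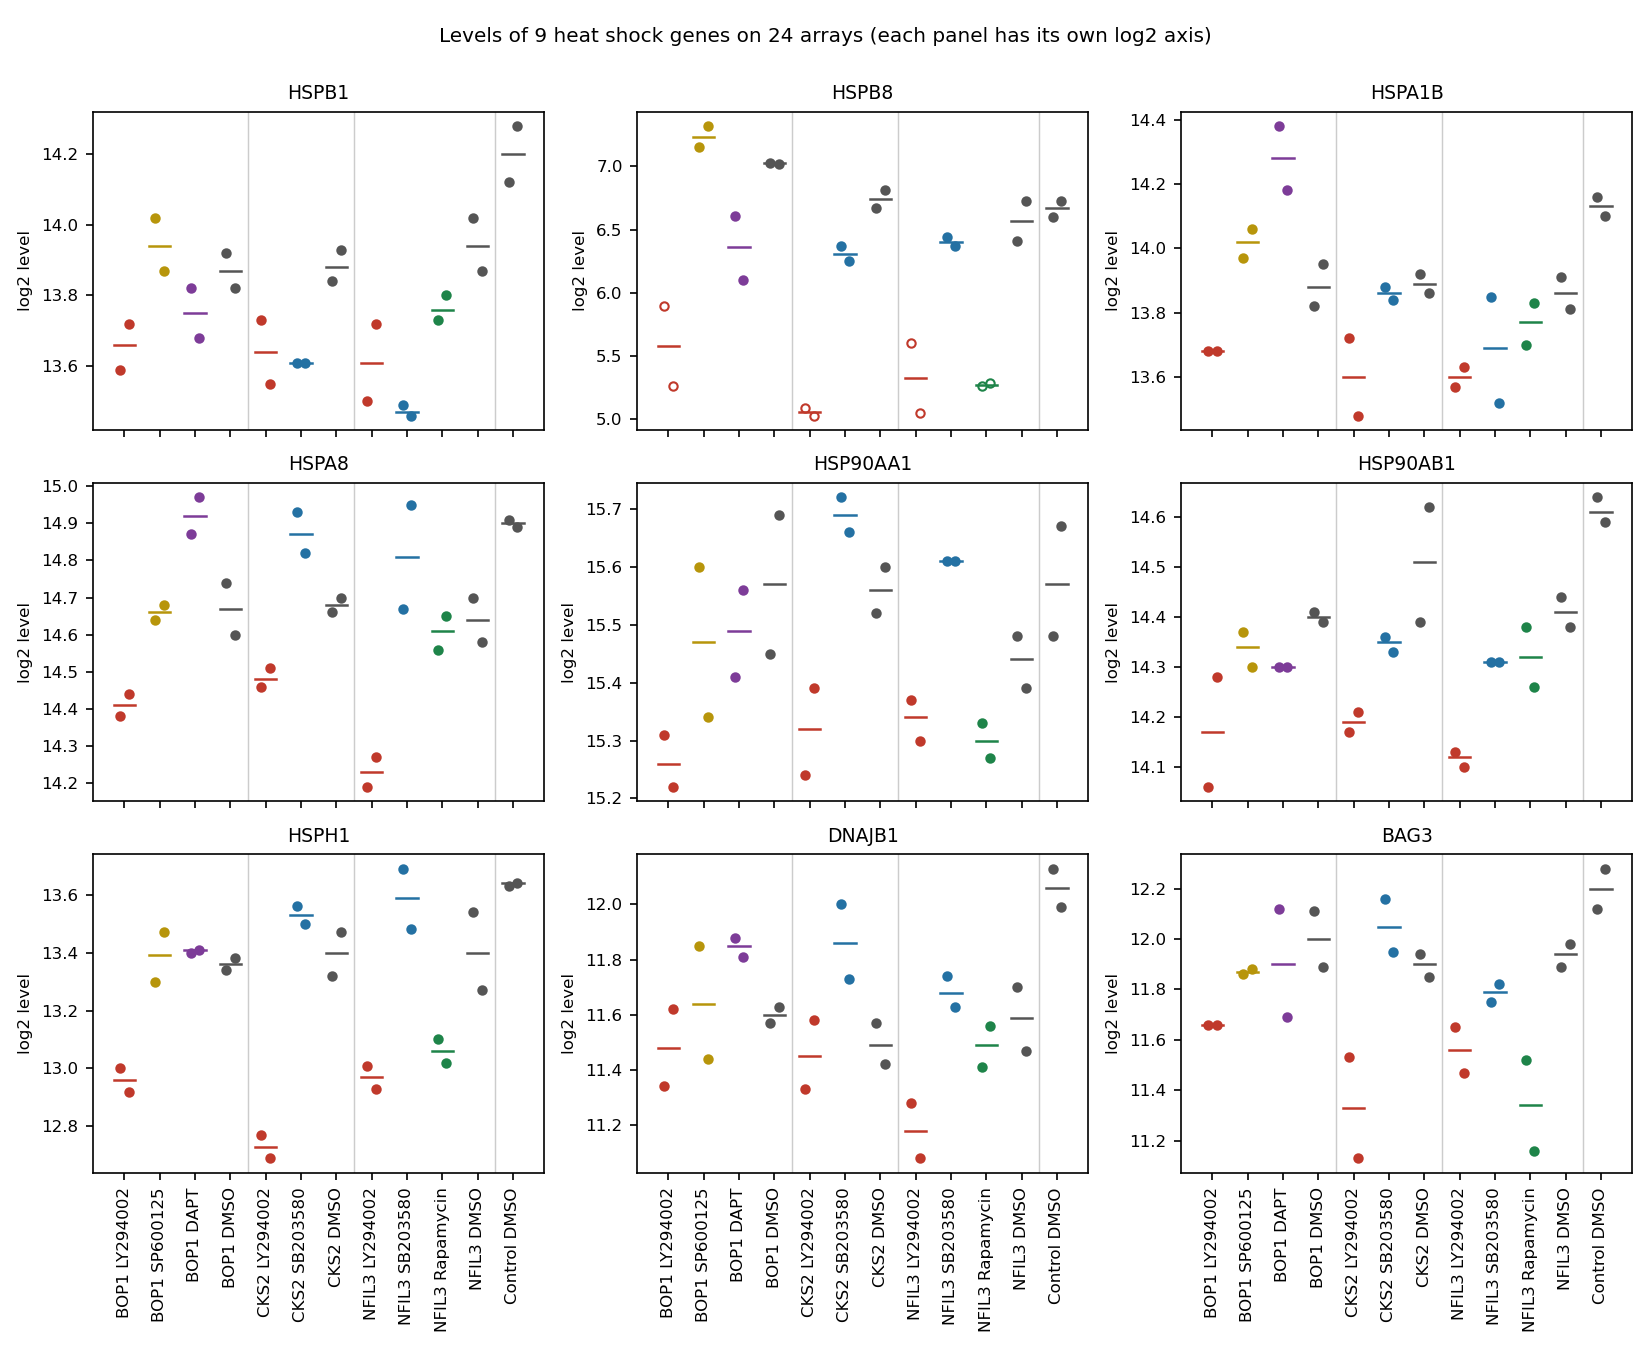
Log2 level of the probe that stood for each of the 9 measured genes, on each of 2 arrays per group (points) with the group mean (line); open points were not detected. The horizontal axis gives the 12 groups, with inhibitors left of DMSO within each line and the control line last. HSPB8 was not detected on the 6 LY294002 arrays and the 2 Rapamycin arrays.

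Ordered by group mean, HSPB8 ran from the BOP1 line with SP600125 (7.23) through that line in DMSO (7.03), CKS2 in DMSO (6.74), control in DMSO (6.67), NFIL3 in DMSO (6.57), NFIL3 with SB203580 (6.40), BOP1 with DAPT (6.36) and CKS2 with SB203580 (6.31), with the 4 groups in which it was undetected below these. The first 2 groups were each clear of the next, while from CKS2 in DMSO down to CKS2 with SB203580 each group overlapped its neighbour. HSPH1 had its highest means in the control line (13.64), NFIL3 with SB203580 (13.59) and CKS2 with SB203580 (13.53), and these neighbours overlapped. Its lowest were in NFIL3 with Rapamycin (13.06), NFIL3 and BOP1 with LY294002 (12.97 and 12.96) and CKS2 with LY294002 (12.73), and only these 4 groups lay below all the others. Of them the NFIL3 and BOP1 groups with LY294002 overlapped, and CKS2 with LY294002 stood alone at the bottom.

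LY294002 lowered most of the heat shock genes. Averaged over the BOP1, CKS2 and NFIL3 lines, 8 of 9 fell past an adjusted p of 0.05 in the limma fit, in which 25.3% of all genes fell and 21.6% rose; the remaining gene was DNAJB1. The median difference of the 9 genes was -0.28 on the log2 scale, against -0.018 over all genes. All 6 LY294002 arrays lay below all 6 DMSO arrays of the same lines for 7 of the 9 genes, a pattern that held for 11.8% of all genes. HSPB8 is in both counts, although none of these LY294002 arrays detected it and it passed the detection filter through other groups.

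HSPB8, the small heat shock protein that acts with BAG3, was lower with LY294002 and did not reach the detection threshold there. On the LY294002 arrays its log2 level was 5.90 and 5.26 in BOP1 cells, 5.09 and 5.03 in CKS2 cells and 5.60 and 5.05 in NFIL3 cells, and it was detected on none of them. On the DMSO arrays it was 7.03 and 7.02 in BOP1 cells, 6.67 and 6.81 in CKS2 cells and 6.41 and 6.73 in NFIL3 cells, detected on all of them. The groups did not overlap in any line. With LY294002 the detection p-values were 0.0169 and 0.101 (BOP1), 0.196 and 0.264 (CKS2) and 0.0494 and 0.243 (NFIL3). With DMSO they were 0.0013 to 0.0039. Of the LY294002 arrays, BOP1 replicate 1 (0.0169) came nearest to the threshold of 0.01. In the BOP1 line HSPB8 was at least 2.03-fold lower with LY294002 (adjusted p = 0.000352). The same bound was at least 1.73-fold lower for CKS2 cells (adjusted p = 9.02e-05) and at least 1.51-fold lower for NFIL3 cells (adjusted p = 0.000645). These bounds set the mean of the DMSO arrays against, on each LY294002 array, the higher of the probe's own level and the lowest level of a detected probe. The adjusted p-values beside such bounds, here and below, come from the limma fit to all levels, undetected ones included. They do not test the bounds. Mean raw signal was 1012.3 to 1129.8 on the LY294002 arrays and 1117.3 to 1364.8 on the DMSO arrays of these lines. It was 970.8 to 1153.0 on the 4 SB203580 arrays, all of which detected HSPB8. The part of signal strength in the result was not tested.

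HSPB1 (HSP27), the abundant small heat shock protein that binds unfolding proteins and actin, lay between 13.50 and 13.73 with a median of 13.66 on the 6 LY294002 arrays, against 13.82 to 14.02 with a median of 13.89 on the 6 DMSO arrays. Every LY294002 array was thus below every DMSO array, by a small margin. HSPB1 fell by 0.26 over the 3 lines (SE 0.06, adjusted p = 0.00255). Within lines it fell in the NFIL3 line (-0.33, adjusted p = 0.0357), and it stood at -0.21 (95% interval -0.44 to 0.01) in the BOP1 line and at -0.25 (-0.47 to -0.02, adjusted p = 0.114) in the CKS2 line.

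Among the HSP70 genes, HSPA8, the constitutive form, was read by a pair of probes that moved together over the 12 groups (r = 0.954). Its probe ILMN_1686367 lay between 14.19 and 14.51 with a median of 14.41 on the LY294002 arrays, against 14.58 to 14.74 with a median of 14.68 on the DMSO arrays. The groups did not overlap, and the lowest LY294002 values came from the NFIL3 line. HSPA8 fell by 0.29 over the 3 lines with either probe (adjusted p = 0.000816 for ILMN_1686367 and 0.00346 for ILMN_2413084). It fell in the NFIL3 line (-0.41, SE 0.10, adjusted p = 0.00845) and stood at -0.26 in BOP1 cells (adjusted p = 0.0862) and at -0.20 in CKS2 cells (adjusted p = 0.181).

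HSPA1B, an HSP70 gene that heat induces strongly, lay between 13.48 and 13.72 with a median of 13.65 on the LY294002 arrays, against 13.81 to 13.95 with a median of 13.88 on the DMSO arrays. Again no LY294002 array reached a DMSO array. HSPA1B fell by 0.25 over the 3 lines (SE 0.07, adjusted p = 0.00612), and in no single line did it pass the test (-0.20, -0.29 and -0.26 in the BOP1, CKS2 and NFIL3 lines). The HSPA1A probe lay between 5.01 and 5.26 on the LY294002 arrays and between 4.99 and 5.48 on the DMSO arrays, undetected on all 12, so no change can be given for it.

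HSPH1, the HSP110 protein that exchanges the nucleotide of HSP70, lay between 12.69 and 13.01 with a median of 12.93 on the LY294002 arrays, against 13.27 to 13.54 with a median of 13.36 on the DMSO arrays. The groups did not overlap. HSPH1 fell by 0.50 over the 3 lines (SE 0.06, adjusted p = 1.16e-05), by 0.67 in the CKS2 line (adjusted p = 0.000652), by 0.43 in the NFIL3 line (adjusted p = 0.00913) and by 0.40 in the BOP1 line (adjusted p = 0.018). BAG3 lay between 11.13 and 11.66 with a median of 11.59 on the LY294002 arrays, against 11.85 to 12.11 with a median of 11.92 on the DMSO arrays. Those groups did not overlap either. BAG3 fell by 0.43 over the 3 lines (SE 0.09, adjusted p = 0.00139) and by 0.57 in the CKS2 line (adjusted p = 0.0196), and it stood at -0.34 in the BOP1 line (adjusted p = 0.154) and at -0.38 in the NFIL3 line (adjusted p = 0.102).

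HSP90AB1, the constitutive cytosolic HSP90, lay between 14.06 and 14.28 with a median of 14.15 on the LY294002 arrays, against 14.38 to 14.62 with a median of 14.40 on the DMSO arrays, without overlap. It fell by 0.28 over the 3 lines (SE 0.05, adjusted p = 0.000626), by 0.32 in CKS2 cells (adjusted p = 0.026) and by 0.29 in NFIL3 cells (adjusted p = 0.0373), and it stood at -0.23 in BOP1 cells (adjusted p = 0.0973). DNAJB1 lay between 11.08 and 11.62 on the LY294002 arrays and between 11.42 and 11.70 on the DMSO arrays. For this J-domain gene the groups overlapped, with 4 of 6 LY294002 arrays below all DMSO arrays. Its difference over the 3 lines was -0.19 (95% interval -0.37 to 0.00, adjusted p = 0.09), and -0.25 with arrays scaled to a common median (adjusted p = 0.0219).

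Taken line by line, 2 of 9 genes fell with LY294002 in the BOP1 line (HSPB8 and HSPH1; 9.74% of all genes fell), 4 in the CKS2 line (HSPB8, HSPH1, HSP90AB1 and BAG3; 12.6% of all genes fell) and 5 in the NFIL3 line (HSPB8, HSPH1, HSPA8, HSP90AB1 and HSPB1; 12.6% of all genes fell). HSPB8, which is in each of these counts, was undetected with LY294002 in every line. By the probe that stood for each gene, a difference between lines in the response to LY294002 was called for none of the 9 genes. In these 3 interaction contrasts (BOP1 minus CKS2, BOP1 minus NFIL3 and CKS2 minus NFIL3) 0%, 0% and 0.0824% of all genes were called. At an unadjusted p under 0.05 it was 0 of 9 in each, where 5.7%, 9.43% and 10% of all genes had such a p. Without 1 array the count of genes that fell was 1 to 2 in the BOP1 line, 2 to 4 in the CKS2 line and 1 to 3 in the NFIL3 line, while over the 3 lines it stayed at 8 or 9. The call of HSPB8 held without any 1 array in every line, and so did that of HSPH1 in the CKS2 line. The call of HSPH1 in the BOP1 line was lost without each of its 4 arrays (adjusted p up to 0.099) and that of HSP90AB1 in the NFIL3 line likewise (up to 0.161). In the NFIL3 line HSPH1 was lost without DMSO replicate 1 or LY294002 replicate 2 (up to 0.118), HSPA8 without replicate 1 of either group (up to 0.074) and HSPB1 without either DMSO replicate or LY294002 replicate 1 (up to 0.256). In the CKS2 line BAG3 was lost without either DMSO replicate or LY294002 replicate 2 (up to 0.192), and HSP90AB1 without DMSO replicate 2 or either LY294002 replicate (up to 0.255).

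**Figure D2:**
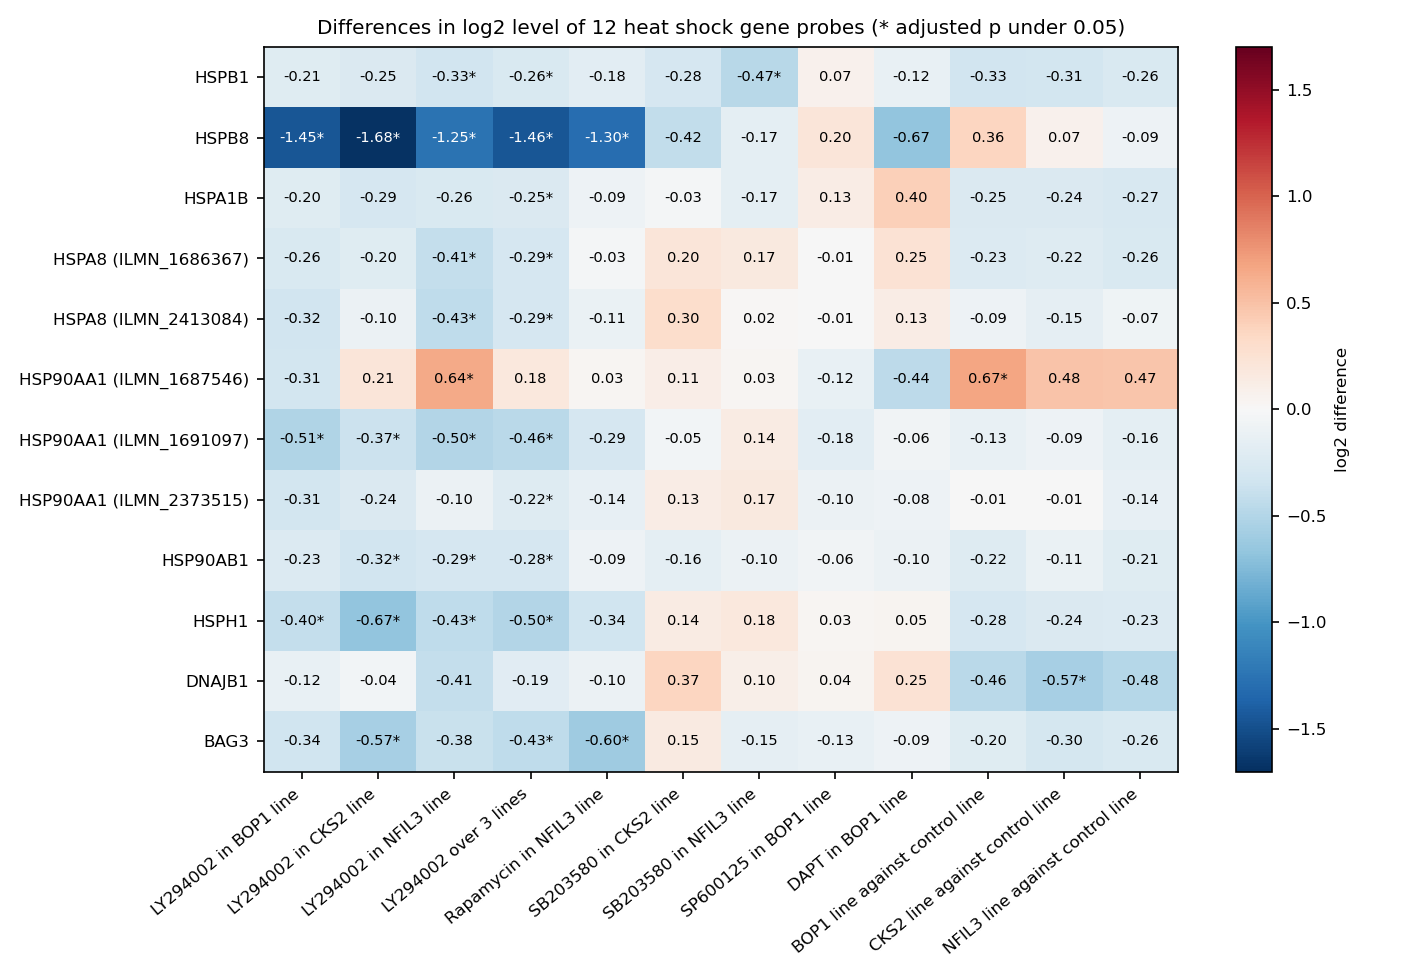
Difference in log2 level of the 12 tested probes (rows) in 12 comparisons (columns), inhibitor minus DMSO or BOP1, CKS2 or NFIL3 line minus control line, each from 2 arrays a group; a star marks an adjusted p under 0.05. HSPB8 has the deepest values, at -1.45, -1.68 and -1.25 with LY294002 in the BOP1, CKS2 and NFIL3 lines and at -1.30 with Rapamycin, all fitted to undetected signals.

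Rapamycin, given to the NFIL3 line only, lowered HSPB8 and BAG3, the pair that acts together. HSPB8 stood at 5.26 and 5.29 on the Rapamycin arrays, where it was not detected, against 6.41 and 6.73 on the DMSO arrays. Without overlap, it was at least 1.57-fold lower (adjusted p = 0.00498). BAG3 stood at 11.52 and 11.16 on the Rapamycin arrays, against 11.89 and 11.98 on the DMSO arrays, and fell by 0.60 (SE 0.16, adjusted p = 0.0391). With these, 2 of 9 genes fell and none rose, where 3.29% of all genes fell and 2.84% rose. HSPH1 stood at -0.34 (adjusted p = 0.0713), HSPA8 at -0.03 and HSPA1B at -0.09. All 9 differences, which share the same DMSO arrays, were below 0, with a median of -0.136 against -0.021 over all genes. The call of BAG3 was lost without either DMSO replicate or Rapamycin replicate 2 (adjusted p up to 0.283), and that of HSPB8 held without any 1 array.

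Side by side in the NFIL3 line, Rapamycin (33.3 nM) and LY294002 (3.3 µM) were given at different doses, and both are set against the same DMSO arrays. HSPA8 was at 14.56 and 14.65 on the Rapamycin arrays, against 14.19 and 14.27 on the LY294002 arrays, without overlap, and by the probe that stood for each gene it was the 1 gene of 9 that differed between them (0.38 higher with Rapamycin, adjusted p = 0.0206; 7.11% of all genes were higher). This call was lost without each of the 4 arrays (adjusted p up to 0.131). A further HSP90AA1 probe, ILMN_1687546, stood at 8.43 and 8.61 on the Rapamycin arrays, against 9.02 and 9.26 on the LY294002 arrays, and was 0.62 lower (SE 0.16, adjusted p = 0.0176; 7.58% of all genes were lower). Its call was lost without Rapamycin replicate 1 or LY294002 replicate 2 (adjusted p up to 0.148). HSPB8 was undetected on all 4 arrays, so no fold can be given between the inhibitors.

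With SB203580 1 of the 9 genes passed the test in the NFIL3 line and none in the CKS2 line. HSPB1 had log2 levels of 13.49 and 13.46 on the NFIL3 SB203580 arrays, against 14.02 and 13.87 on the NFIL3 DMSO arrays, without overlap and with the lowest mean of all 12 groups. It fell by 0.47 (SE 0.11, adjusted p = 0.0125), 1 of 9 genes to fall where 6.98% of all genes fell. In the CKS2 line HSPB1 stood at 13.61 and 13.61 on the SB203580 arrays, against 13.84 and 13.93 on the DMSO arrays, also without overlap, at a difference of -0.28 (95% interval -0.50 to -0.05, adjusted p = 0.114). There 0 of 9 genes were called, with 2 at an unadjusted p under 0.05, where 10.3% of all genes were called and 26.9% had such an unadjusted p. The call in the NFIL3 line was lost without DMSO replicate 1 or either SB203580 replicate (adjusted p up to 0.1). With arrays scaled to a common median it stood at -0.41 (adjusted p = 0.0502). In each of the CKS2 and NFIL3 lines 1 of 6 epithelial and 1 of 2 fibroblast and endothelial markers tested fell with SB203580, and of 4 leukocyte markers 1 rose and 1 fell, and their part in the result was not tested.

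As background, p38 acts through another kinase that phosphorylates the HSPB1 protein, which RNA levels do not measure. DNAJB1 stood at 12.00 and 11.73 on the CKS2 SB203580 arrays, against 11.57 and 11.42 on the CKS2 DMSO arrays (difference 0.37, 95% interval 0.05 to 0.69). The groups did not overlap, and the difference did not pass the adjusted threshold. HSPH1 was at 0.14 (CKS2 line) and 0.18 (NFIL3 line), HSP90AA1 at 0.13 and 0.17, and HSPB8, detected on all 4 SB203580 arrays, at -0.42 and -0.17.

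At the same dose of 3.3 µM, SB203580 and LY294002 left different levels. HSPB8 is counted here although, of these inhibitors, it was detected only with SB203580. In the CKS2 line 6 of 9 genes were higher with SB203580 than with LY294002 (HSPB8, HSPA8, HSP90AA1, HSPH1, DNAJB1 and BAG3; 20.5% of all genes were higher) and in the NFIL3 line 4 of 9 (HSPB8, HSPA8, HSPH1 and DNAJB1; 17.8% of all genes were higher). HSPH1 stood at 13.56 and 13.50 on the CKS2 SB203580 arrays, against 12.77 and 12.69 on the CKS2 LY294002 arrays, the widest measured gap at 0.80 (SE 0.11, adjusted p = 3.96e-05). BAG3 stood at 12.16 and 11.95 on the CKS2 SB203580 arrays, against 11.53 and 11.13 on the CKS2 LY294002 arrays (0.72, adjusted p = 0.00217). Neither pair of groups overlapped.

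In the NFIL3 line HSPA8 stood at 14.67 and 14.95 on the SB203580 arrays, against 14.19 and 14.27 on the LY294002 arrays (0.58, adjusted p = 0.000425), and HSPH1 was 0.61 higher (adjusted p = 0.000436). HSP90AA1 was not called there by the probe that stood for it (ILMN_2373515, 0.27 higher, adjusted p = 0.0691), while its other probes were called in opposite directions. ILMN_1691097 stood at 15.39 and 15.42 on the NFIL3 SB203580 arrays, against 14.79 and 14.74 on the NFIL3 LY294002 arrays, 0.64 higher (adjusted p = 7.72e-05), and ILMN_1687546 at 8.52 and 8.53, against 9.02 and 9.26, 0.61 lower (adjusted p = 0.00755). The call of ILMN_1691097 held without any 1 array, and that of ILMN_1687546 was lost without LY294002 replicate 2 (adjusted p up to 0.0826). HSPB8 was at least 1.29-fold higher with SB203580 for CKS2 cells (adjusted p = 0.000206) and at least 1.35-fold higher for NFIL3 cells (adjusted p = 0.000825). HSPB1 was not called in either line: its means were 13.61 with SB203580 and 13.64 with LY294002 in CKS2 cells (difference -0.03, and 0.15 with arrays scaled to a common median), and 13.47 with SB203580 and 13.61 with LY294002 in NFIL3 cells. Without CKS2 SB203580 replicate 1 the count in the CKS2 line was 3 in place of 6: HSPA8, HSP90AA1 and DNAJB1 were lost, of which HSP90AA1 and DNAJB1 were lost without CKS2 LY294002 replicate 1 as well (adjusted p up to 0.0551, 0.101 and 0.28). In the NFIL3 line DNAJB1 was lost without LY294002 replicate 2 or SB203580 replicate 1 (up to 0.13).

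With SP600125 (33.3 nM), and with DAPT at 667 nM, the BOP1 line had calls in none of the 9 genes, and limma called 0% of all 12141 genes in either comparison (1307 genes had an unadjusted p under 0.05 with SP600125 and 1403 with DAPT). HSPA1B had log2 levels of 14.38 and 14.18 on the DAPT arrays, the highest group of all 12, against 13.82 and 13.95 on the DMSO arrays. It stood 0.40 higher without overlap (95% interval 0.15 to 0.64, adjusted p = 0.194). HSPB8 stood at 6.61 and 6.10 with DAPT, against 7.03 and 7.02 with DMSO (-0.67, 95% interval -1.10 to -0.24, adjusted p = 0.21). With DAPT 3 of 9 genes had an unadjusted p under 0.05, these and HSPA8 (0.25), where 11.6% of all genes had, and with SP600125 0 of 9, where 10.8% of all genes had.

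SP600125 left its largest difference at HSPB8, which stood at 7.15 and 7.32 on the SP600125 arrays, against 7.03 and 7.02 on the DMSO arrays (0.20, 95% interval -0.23 to 0.63). The group mean was the highest of the 12 and the groups did not overlap, but the interval includes 0.

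The BOP1, CKS2 and NFIL3 lines were set against the line with the control virus, all in DMSO. In all 3 comparisons, which share the 2 control arrays, most heat shock genes stood lower than in the control line, by amounts that rarely passed the test. DNAJB1 had log2 levels of 11.57 and 11.63 in BOP1 cells, 11.57 and 11.42 in CKS2 cells and 11.70 and 11.47 in NFIL3 cells, against 12.13 and 11.99 in control cells. No array of these lines reached a control array. DNAJB1 fell by 0.57 in the CKS2 line (SE 0.15, adjusted p = 0.0247) and stood at -0.46 in BOP1 cells (adjusted p = 0.0604) and at -0.48 in NFIL3 cells (adjusted p = 0.0535). The call in the CKS2 line was lost without each of its 4 arrays (adjusted p 0.0735 to 0.155).

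HSPB1 stood at 13.92 and 13.82 in BOP1 cells, 13.84 and 13.93 in CKS2 cells and 14.02 and 13.87 in NFIL3 cells, against 14.12 and 14.28 in control cells. Here too each array of the BOP1, CKS2 and NFIL3 lines was below both control arrays, with differences of -0.33, -0.31 and -0.26 (adjusted p = 0.0582, 0.0684 and 0.131). HSPH1 stood at 13.34 and 13.38 in BOP1 cells, 13.32 and 13.47 in CKS2 cells and 13.54 and 13.27 in NFIL3 cells, against 13.63 and 13.64 in control cells. Its differences were -0.28, -0.24 and -0.23 (adjusted p = 0.0988, 0.154 and 0.169).

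The number of genes that fell was 0, 1 and 0 of 9 in the BOP1, CKS2 and NFIL3 lines, where 4.34%, 4.32% and 4.52% of all genes fell. At an unadjusted p under 0.05 it was 6, 4 and 6 of 9, all lower than in the control line, where 12.4%, 12.9% and 12.6% of all genes were. The arrays of the BOP1, CKS2 and NFIL3 lines lay below both control arrays for 7, 6 and 7 of the 9 genes, a pattern that held for 28.8%, 30.3% and 29.2% of all genes. The median difference of the 9 genes was -0.233, -0.24 and -0.256, against 0.015, 0.005 and 0.008 over all genes. With arrays scaled to a common median in place of quantile normalization, 6, 6 and 1 of the 9 genes fell, where 7.82%, 7.94% and 6.1% of all genes fell, and of the 21608 probes in the CKS2 line 1509 were then called higher and 1645 lower, in place of 1388 higher and 988 lower. HSPB8 and HSP90AA1 did not follow the others. The difference of HSPB8 was 0.36 for BOP1 cells (95% interval -0.07 to 0.79), 0.07 for CKS2 cells and -0.09 for NFIL3 cells. HSP90AA1, by the probe that stood for it, had means of 15.57, 15.56 and 15.44 in BOP1, CKS2 and NFIL3 cells, against 15.57 in control cells. Mean raw signal was 1117.3 to 1364.8 on the arrays of these lines and 1303.3 to 1365.9 on the control arrays, and 18435 to 19666 probes were detected on them, against 18067 to 18085 on the control arrays. Of the leukocyte markers 4 of 8 were tested and 1 rose in each line, with a summed signal that ranged between group means of 561 (control line in DMSO, the lowest) and 810 (NFIL3 line with LY294002, the highest). Of the fibroblast and endothelial markers 2 of 10 were tested and 1 rose in the BOP1 line and none in the others, with a summed signal between 401 and 537 over the groups, and the part of these in the results was not tested.

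Between the BOP1, CKS2 and NFIL3 lines in DMSO, limma called 0 of the 9 genes in any of 3 comparisons, with 1 of 9 at an unadjusted p under 0.05. This was HSPB8 in the BOP1 line, with log2 levels of 7.03 and 7.02, against 6.41 and 6.73 in the NFIL3 line (0.46, adjusted p = 0.66), a comparison in which 7% of all genes had such an unadjusted p. Of all genes 0.00824% were called between the BOP1 line and the CKS2 line, 0.00824% between the BOP1 line and the NFIL3 line and 0% between the CKS2 line and the NFIL3 line.

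HSP90AA1, the stress-inducible cytosolic HSP90, was read by 3 probes that did not all move together. ILMN_1691097 and ILMN_2373515 moved together over the 12 groups (r = 0.882), and ILMN_1687546 did not follow them (r = -0.52 and -0.257). These correlations share the same 24 arrays and describe 12 group means. ILMN_1691097 lay between 14.74 and 14.97 with a median of 14.80 on the 6 LY294002 arrays, against 15.20 to 15.40 with a median of 15.30 on the 6 DMSO arrays. The groups were far apart, and the probe fell by 0.51, 0.37 and 0.50 in the BOP1, CKS2 and NFIL3 lines (adjusted p = 0.0016, 0.00879 and 0.00119) and by 0.46 over them (SE 0.05, adjusted p = 5.06e-06).

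ILMN_2373515, the probe that stood for the gene in the counts, lay between 15.22 and 15.39 with a median of 15.30 on the LY294002 arrays, against 15.39 to 15.69 with a median of 15.50 on the DMSO arrays. The groups met at their edge. The probe fell by 0.22 over the 3 lines (SE 0.06, adjusted p = 0.0117) and in no line alone (-0.31, -0.24 and -0.10). With arrays scaled to a common median this difference was -0.01 (adjusted p = 0.912), and the calls of ILMN_1691097 in the BOP1 and CKS2 lines were lost as well, while its call over the 3 lines held. In the CKS2 line the call of ILMN_1691097 was also lost without DMSO replicate 1 (adjusted p up to 0.0848).

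ILMN_1687546 stood at 9.02 and 9.26 on the NFIL3 LY294002 arrays, against 8.57 and 8.42 on the NFIL3 DMSO arrays, and rose by 0.64 (SE 0.16, adjusted p = 0.00895) where the other probes were lower. In the BOP1 line it was at 8.54 and 8.22 with LY294002, against 8.82 and 8.56 with DMSO, a difference of -0.31 (adjusted p = 0.187). Between these lines the LY294002 response differed by -0.96 (BOP1 minus NFIL3, SE 0.22), which did not pass the adjusted threshold (adjusted p = 0.118). In DMSO this probe stood at 8.82 and 8.56 in the BOP1 line, against 8.15 and 7.89 in the control line, and rose by 0.67 (SE 0.16, adjusted p = 0.0155), with 0.48 (adjusted p = 0.0652) for CKS2 cells and 0.47 (adjusted p = 0.0663) for NFIL3 cells. The NFIL3 call was lost without replicate 2 of either group (adjusted p up to 0.0955) and the BOP1 call without control replicate 2 or BOP1 replicate 1 (up to 0.137). The platform annotation lists ILMN_1687546 and ILMN_1691097 under the same HSP90AA1 transcript and ILMN_2373515 under another. Without the probe sequences, which further HSP90AA1 transcripts each probe reads cannot be told.

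**Figure D3:**
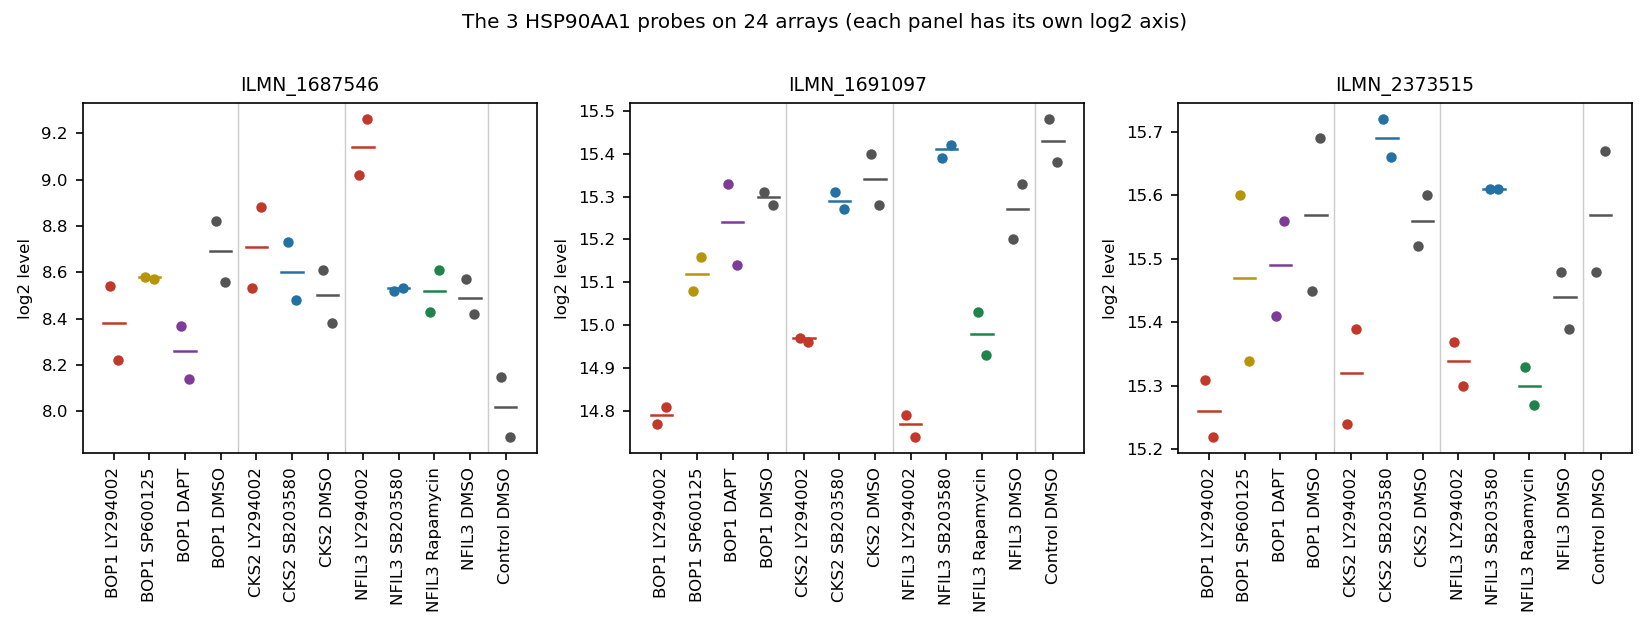
Log2 level of each of the 3 HSP90AA1 probes on the 2 arrays of each of 12 groups (points) with the group mean (line), inhibitors left of DMSO within each line and the control line last. ILMN_1687546 was highest with LY294002 in the NFIL3 line and lowest in the control line, where ILMN_1691097 was lowest and highest.

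Over the 12 group means the heat shock genes varied together in part. Pearson's r between the probes that stood for the 9 genes was highest for HSPA8 with DNAJB1 (0.92), HSP90AA1 with HSPH1 (0.876), HSPH1 with BAG3 (0.87) and HSPB8 with BAG3 (0.842, with HSPB8 undetected in 4 of the 12 groups). It was lowest for HSPB1 with HSP90AA1 (0.162) and HSPB1 with HSPA8 (0.304). These values come from the same 24 arrays and from groups that share lines and treatments, so they describe these arrays and carry no test.

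The 3 other genes whose 12 group means followed each member most closely were looked up among 12141 genes. For HSPH1 they were KBTBD8 (r = 0.99), BAZ1A (0.988) and CLCC1 (0.987), and for HSPA8 they were CHAC2 (0.981), CHCHD1 (0.978) and MARS1 (0.975). HSP90AB1 was followed by PGAM1 (0.979), ZNF239 (0.979) and METTL13 (0.958), and DNAJB1 by SHQ1 (0.977), UTP18 (0.952) and ATP5ME (0.952). HSPB8 was followed by ARCN1 (0.958), DACT3 (0.939) and VDAC3 (0.937), values that rest in part on the 4 groups in which HSPB8 was undetected. The closest gene to HSPB1 was CYP4F22 (0.969) and the third closest ENTREP3 (0.947), and the one between them is not reported here. HSP90AA1 was followed by NEDD1 (0.964), TM4SF19 (0.963) and FERRY3 (0.961), and HSPA1B by PPP2R5D (0.935), HKDC1 (0.92) and GTF2I (0.916). BAG3 was followed by ISCA2 (0.945), KPNB1 (0.935) and HSPA4L (0.934), the last itself a chaperone.

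The rest of the chaperone network was read from 9 other lists of genes. The list names are loose. The mitochondrial list also holds the proteases LONP1 and CLPP. The cytosolic J-domain list holds DNAJB12 and DNAJB14 of the ER membrane, and the HSP70 list the pseudogene HSPA7. Over the 3 lines LY294002 lowered (in this order) 6 of 9 other HSP70 and HSP110 genes, 8 of 14 other cytosolic J-domain genes, 6 of 12 HSP90 co-chaperones, 7 of 14 chaperonin and prefoldin genes, 7 of 11 mitochondrial chaperones and 7 of 10 ER chaperones, where 25.3% of all genes fell, and raised none of them. The HSP70 nucleotide exchange and BAG list was split, with 3 of 8 lower and 3 of 8 higher. The heat shock factor list had 3 tested genes, HSF1, HSF4 and HSBP1. Of these HSF4 rose (0.55, adjusted p = 0.0332, detected on 17 of 24 arrays), while HSF1 and HSBP1 were not called. Group means of HSF1, LY294002 against DMSO, were 7.57 against 7.94 (BOP1), 7.74 against 8.22 (CKS2) and 8 against 7.82 (NFIL3). Those of HSBP1 were 13.36 against 13.55 (BOP1), 13.5 against 13.54 (CKS2) and 13.3 against 13.36 (NFIL3). Of the 7 other small heat shock proteins 0 passed the detection filter. With arrays scaled to a common median the same lists had 6, 7, 7, 6, 5 and 6 lower and none higher, and the exchange and BAG list again 3 lower and 3 higher, where 24.8% of all genes fell and 22.9% rose.

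HSPA4L, an HSP110 relative of HSPH1, fell by 0.89 over the 3 lines (SE 0.06, adjusted p = 8.43e-08) and HSPA14, an HSP70 of the ribosome, by 0.88 (SE 0.07, adjusted p = 4.21e-07). CHORDC1, an HSP90 co-chaperone, fell by 0.71 (SE 0.06, adjusted p = 6.11e-07) and the ER J-domain protein DNAJB11 by 0.58 (SE 0.06, adjusted p = 3.4e-06), and HYOU1, an HSP110 relative of the ER, by 0.49 (SE 0.06, adjusted p = 1.59e-05). STUB1, the ubiquitin ligase CHIP that marks HSP70 clients for degradation, rose by 0.52 (SE 0.06, adjusted p = 1.36e-05), as did BAG6 by 0.41 (SE 0.05, adjusted p = 1.96e-05).

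**Figure D4:**
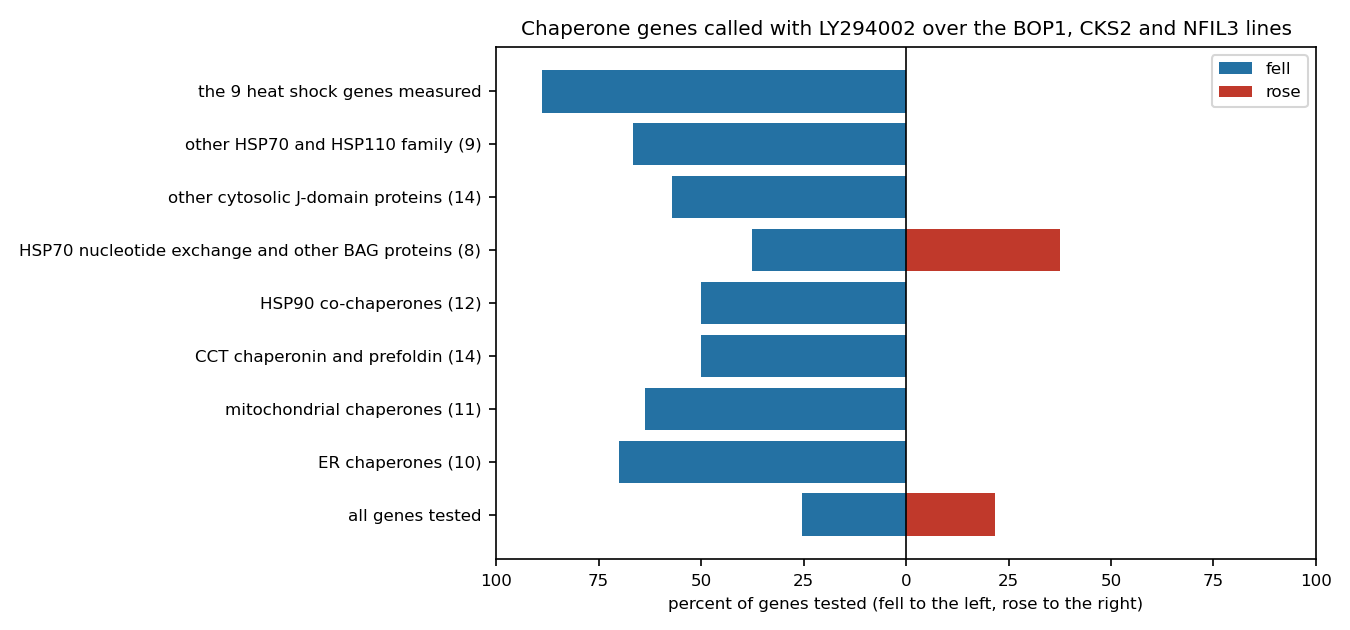
Percent of the tested genes of each chaperone list that fell (left) or rose (right) past an adjusted p of 0.05 with LY294002 over the BOP1, CKS2 and NFIL3 lines; numbers in brackets are genes tested, and the bottom bar gives all genes. Of the 9 heat shock genes measured 8 fell, against 25.3% of all genes. HSPB8, among the 8, was undetected on the LY294002 arrays.

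Rapamycin in the NFIL3 line lowered HSPA4L by 0.91 (SE 0.11, adjusted p = 0.00182) and HSPA14 by 0.53 (SE 0.13, adjusted p = 0.0277), 2 of 9 genes of their list, where 3.29% of all genes fell. It lowered 2 of 10 ER chaperones, HSPA5 by 0.52 and CANX by 0.53, and 0 of 14 cytosolic J-domain genes, and it raised BAG6 by 0.44 (adjusted p = 0.0154). With SB203580 few genes of these lists were called in either direction. In CKS2 cells 1 gene rose in each of 5 lists, where 4.21% of all genes rose: CHORDC1 by 0.46 (adjusted p = 0.0149), BAG4, a BAG-domain partner of HSP70, by 0.84 (adjusted p = 0.00246), DNAJB14 by 0.64, HSPA4 by 0.47 and TCP1, a chaperonin subunit, by 0.40. There 1 gene fell in each of 2 lists, where 6.13% of all genes fell: HSPA13 by 0.67 (adjusted p = 0.0298) and the collagen chaperone SERPINH1 by 0.54 (adjusted p = 0.0167). In NFIL3 cells CHORDC1 rose by 0.60 (adjusted p = 0.00336), BAG4 by 0.55 (adjusted p = 0.0269) and HSPA14 by 0.49 (adjusted p = 0.0262), where 3.9% of all genes rose, and none of these lists had a gene that fell.

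Against the control line, in each of the 3 comparisons 4 of 12 HSP90 co-chaperones fell and 0 of 14 cytosolic J-domain genes were called, and 3, 4 and 3 of 9 other HSP70 and HSP110 genes fell in the BOP1, CKS2 and NFIL3 lines, where 4.34%, 4.32% and 4.52% of all genes fell. The 4 co-chaperones were CHORDC1 (-0.50, -0.63 and -0.73), STIP1, which bridges HSP70 and HSP90 (-0.56, -0.38 and -0.46), the immunophilin FKBP4 (-0.54, -0.46 and -0.46) and the cyclophilin PPID (-1.12, -1.29 and -1.07). HSPA4, an HSP110 relative, fell by 0.59, 0.47 and 0.44, and BAG1, another nucleotide exchange factor, rose by 0.73, 0.69 and 0.63, where 7.21%, 7.32% and 7.31% of all genes rose. With arrays scaled to a common median 7, 7 and 5 co-chaperones and 1, 1 and 2 J-domain genes fell, where 7.82%, 7.94% and 6.1% of all genes fell, and the genes named here kept their direction. All 3 comparisons use the same control arrays.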

How the data were processed

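RNA had been extracted with Trizol and RNeasy columns and labelled with an Ambion Illumina TotalPrep kit, per the labels' protocols. The deposited table that was not normalized gave, per the file headers, 1 intensity and 1 detection p-value for each of 47323 probes on each of 24 arrays, the p-values in steps of 1 in 770. The authors' processed table gave 1 intensity per probe on a linear scale. GenomeStudio 2010.1 and Partek stand in the submitters' processing notes, without a role.

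From the deposited intensities, levels were computed with limma 3.58.1 in R 4.3.3: normal-exponential background correction by the detection p-values, quantile normalization, an offset of 16 and log2. Probes were named through the platform annotation (30113 with 1 symbol, 8 with several, 17202 with none), and 21608 probes with a detection p under 0.01 on at least 2 arrays were kept. The brightest kept probe stood for a gene. A model with a coefficient for each of 12 groups was fitted to all 24 arrays (12 residual degrees of freedom), 22 comparisons were contrasts of it, and p-values were adjusted by Benjamini-Hochberg over all kept probes, with a threshold of 0.05. Background percentages count genes by their brightest probe. The fit was also run on simulated data with independent normal noise and planted changes, which leaves out effects shared by the probes of an array.

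Named genes were all probes of the 10 genes, up to 4 called genes with the smallest p of each comparison from the other lists, and the 3 genes closest to each member in their group means; some further called list genes were picked for the text with their values known, and some that the rule names are left out. The members, lists and tests were chosen with earlier results of these data known. The marker and chaperone lists were written from general knowledge. Replicate numbers shared between groups did not pair the arrays: the deviations of replicate 1 correlated between groups at a median r of -0.005 (range -0.096 to 0.295 over 66 pairs of groups, 2 of them over 0.1). The number of arrays limits the precision. Python 3.11.15 and matplotlib 3.10.9 drew the figures. Alternatives tried were other background corrections, scalings, filters, probe rules, moderation settings, the processed table, a replicate block, fits to the arrays compared only and leaving out each array.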

Additional observations from a re-analysis of the deposited data

How the results depend on the processing

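The count of the 9 genes called in each comparison was recomputed under 10 other settings, and 182 of 220 counts were within 1.5 times of the value reported or both 0; the cause of the others was not tested, except where fewer arrays or fewer probes entered the fit. Against the control line the counts in the BOP1, CKS2 and NFIL3 lines (0, 1 and 0 as reported) were 2, 2 and 1 without background correction, with the authors' processed table, with only probes detected on all arrays and with the mean of a gene's probes, 6, 6 and 1 with median scaling, and 3, 2 and 2 with trend and robust moderation. With 1 probe per gene they were 2 in the BOP1 and 1 in the NFIL3 line, and in the CKS2 line 0 without a detection filter and 0 in fits to the compared arrays alone. With LY294002 the BOP1 line gave 4 under trend and robust moderation and under the mean of probes; fits to the compared arrays alone gave 1 in the BOP1, 1 in the CKS2 and 1 in the NFIL3 line. The NFIL3 line gave 3 with median scaling and 3 without the filter. SB203580 gave 0 in the NFIL3 line with median scaling and in fits to the compared arrays alone, and 1 in the CKS2 line under trend and robust moderation. Rapamycin gave 1 without the filter and 0 with only the arrays compared, and against LY294002 it gave 0 with median scaling, without the filter and with only the arrays compared. SB203580 against LY294002 in the CKS2 line gave 3 with only the arrays compared.

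Leaving out 1 array gave 0 in each line against control, 1 to 2, 2 to 4 and 1 to 3 with LY294002 in the BOP1, CKS2 and NFIL3 lines, 8 to 9 over the 3 lines, 0 to 1 with SB203580 in the NFIL3 line, 1 to 2 with Rapamycin, 3 to 6 and 3 to 4 for SB203580 against LY294002 in the CKS2 and NFIL3 lines and 0 for Rapamycin against LY294002; a group left with 1 array was assumed to vary like the others. A replicate block kept all 48 calls of single probes, and the samples share only a number. Fits to only the arrays compared kept 22 of 48 and median scaling 40 of 48, which added 22 calls. Median scaling of the other chaperone lists was chosen after seeing the data. For all probes of the CKS2 line against control it gave 1509 higher and 1645 lower, against 1388 and 988. The chip could not be used as a block because the headers and labels name none. Signal over background limits HSPB8, detected on 16 of 24 arrays, to bounds, and leaves HSPA1A unmeasured.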
